A study of Homo sapiens with 12 samples.

Results

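The zinc finger genes of human chromosome 19 were followed in macrophages that had received the microRNA miR-122-5p. The members were the protein-coding genes of chromosome 19 named ZNF and a number in the GENCODE 29 annotation with a mean of at least 30 counts over the 12 libraries. Of the 246 ZNF genes of the chromosome, 148 met this minimum, among 58735 genes in the count table. The other 98 fell below it, and 19 of those had 0 counts in every library. The members nearest to the minimum were ZNF551, ZNF543 and ZNF420 with means of 30.4, 30.5 and 30.7 counts, and ZNF583, ZNF699 and ZNF57 lay just outside it with 29.8, 28.5 and 27.5. All 148 members entered the test across genes, so no member was lost to the low-count filter.

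The cells were THP-1 macrophages, a human monocytic leukaemia line carrying a macrophage phenotype. One group of 6 libraries received a miR-122-5p mimic and the other group of 6 a control miRNA mimic, each at 30 nM with the lipid reagent RNAimax. After 24 h of transfection both groups were rested and then given LPS (lipopolysaccharide, a bacterial outer membrane component that activates TLR4) for 4 h. The series title places the work in the study of neutrophil exosomes in Behçet's disease, and every cell compared was of 1 cell line and had been given LPS, so neither untransfected nor unstimulated cells enter any value below.

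Most ZNF proteins of chromosome 19 carry a C-terminal array of C2H2 zinc fingers that reads DNA, and many carry an N-terminal KRAB box. The KRAB box binds the corepressor TRIM28 (KAP1), which brings in the histone methyltransferase SETDB1 and the heterochromatin protein HP1, and the targets are in large part transposable elements. The genes arose by repeated tandem duplication and stand in clusters along the chromosome, and their transcripts are usually scarce.

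The sequence of the microRNA was compared with the 3′ untranslated regions (UTRs) of the members, because a microRNA pairs with its targets mainly through its seed, bases 2 to 8, shown in capitals. It is the mature sequence of RefSeq (GRCh38.p14, chr18:58451088-58451109, plus strand). The sequence of the synthetic mimic itself is not given in the sources used here.

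miR-122-5p: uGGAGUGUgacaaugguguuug

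The DNA letters that match the seed are ACACTCCA (8mer), ACACTCC (7mer-m8), CACTCCA (7mer-A1) and CACTCC (6mer), searched on the sense strand of the longest annotated 3′ UTR, with each gene placed in the strongest class it held. Of the members, 9 held an 8mer. To show what surrounds these matches, 30 bases around an 8mer are printed for ZNF430, which was called lower, and ZNF264, which was not called, with the 8mer in capitals.

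ZNF264 (chr19:57221867-57221896, plus strand): tctaaggtcccACACTCCAgcaagggtgaa
ZNF430 (chr19:21034927-21034956, plus strand): aacttttctgcACACTCCAttctgttctta

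The group difference was tested with edgeR's quasi-likelihood test on the counts of all 15471 genes kept by the low-count filter, with Benjamini-Hochberg adjustment over all of them, and a gene was called at an adjusted p under 0.05. Fold changes are log2 values of miR-122-5p over the control mimic with their standard error (SE), and levels are CPM (counts relative to library size, scaled by TMM factors). Library totals ran from 29473750 to 39468157 counts, and no library was a second copy of another, since the chi-square of counts per degree of freedom between any 2 of the same group was 7.97 to 75.2. The labels do not say whether the 6 libraries came from separate cultures, so the p-values rest on a spread between libraries that may be technical only. Of 12 macrophage and monocyte markers, 10 reached 1 CPM in at least 1 library (summed level 2566 to 3040 CPM with miR-122-5p and 2442 to 2957 with the control mimic), and the T cell markers CD2, CD3D and CD3E were at 0 in all libraries. CD68 and MRC1 did not reach 1 CPM in any library. Single markers of that list were called in both directions, with PTPRC at -1.21, CD163 at -0.81, CD14 at -0.39, CSF1R at -0.36 and ITGAX at -0.19, and TYROBP at 0.30 and ITGAM at 0.19 (log2 fold change, by the edgeR test described above). The 4 neutrophil markers summed to 512.0 to 677.6 and 507.2 to 706.2 CPM, most of it ELANE, which was not called (-0.03). Of the B cell markers CD79A was called higher (0.56, edgeR adjusted p = 0.0205), at means of 2.91 and 1.98 CPM. Of 3 hepatocyte markers APOA1 alone reached 1 CPM, with a summed level of the list of 11.1 to 13.9 CPM with miR-122-5p and 6.44 to 8.63 with the control mimic. The part of these markers in the results was not tested.

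One property of the libraries bears on every result below. The log2 CPM of a gene relative to its mean over libraries changed with the GC content of its longest transcript, and the slope of that change was 0.034 to 0.229 per 10 percentage points in the 6 libraries given miR-122-5p and -0.318 to 0.012 in the 6 controls. The groups did not overlap in this slope. A treatment difference and a library difference in GC slope cannot be told apart in this design. Results are therefore given as counted, after removal of each library's trend with GC content and length (the GC and length offsets), and, where a call ended, with the library's slope as a covariate. The covariate left 12.2% of all tested genes called lower and 7.22% higher, against 26.2% and 24.3% as counted. A call that ended with the covariate therefore does not show that the change was gone.

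The called ZNF genes of chromosome 19 moved in both directions. In the miR-122-5p group 25 members fell and 16 rose, and 107 did not pass the test. Thus 16.9% of members were called lower and 10.8% higher, where 26.2% of all tested genes were called lower and 24.3% higher (50.5% in all). The median log2 fold change of the members was -0.06 (quartiles -0.34 and 0.21, range -1.14 to 1.09), beside 0.01 for all tested genes. Only ZNF613 fell, and only ZNF749 and ZNF428 rose, by at least 2-fold with a call as counted. Of the 15471 tested genes, 859 were called lower and 586 higher with a change of that size. In bulk RNA, fewer cells of a type and less RNA per cell cannot be told apart.

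The members were scarcer than most tested genes. The median SE was 0.185 over the members and 0.124 over all tested genes. Of members with a mean of 30 to under 100 counts 18.1% were called, against 32.8% of all tested genes in that range. The shares were 36.2% against 48.7% at 100 to under 300 counts and 38.9% against 65.7% from 300 counts up. The members were thus called in a smaller share within each of the 3 count ranges, and the difference in share was not tested.

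The values of the 2 groups did not overlap for 10 members that fell and 7 that rose, where 16.1% and 13.4% of all tested genes were without overlap in those directions. The 10 were ZNF600, ZNF432, ZNF101, ZNF224, ZNF888, ZNF175, ZNF816, ZNF792, ZNF585B and ZNF230. The 7 were ZNF584, ZNF444, ZNF428, ZNF358, ZNF749, ZNF548 and ZNF71.

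The calls were also counted by position on the chromosome. When the 246 genes were split at gaps of over 1 Mb they formed 16 clusters, 15 of them with members. Cluster 15, from 51571298 to 53580269 in 19q13.4 (GRCh38), held 26 members, of which 13 fell and 0 rose (median -0.36). Cluster 16, the most distal, from 55476332 to 58481230, held 45 members, of which 13 rose and 0 fell (median 0.25). By edgeR at an unadjusted p under 0.05, 1 member of cluster 15 was higher and 0 of cluster 16 lower, and DESeq2 called 1 and 0 and limma-voom 0 and 0. The share lower was 50% in cluster 15, against 26.2% of all tested genes. The median transcript GC content of cluster 15 was 41.0%. In the quintile of all tested genes up to 41.3% GC, 46.4% were called lower, and in the next quintile 34.8%. In cluster 16 the share higher was 28.9%, near the 24.3% of all tested genes. The difference between the clusters was not tested.

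The remaining clusters held few calls. In cluster 5 (19668796 to 24129961), the primate-expanded array that holds ZNF91 and ZNF93, 3 of 13 members fell and 0 rose (0 higher at an unadjusted p under 0.05 in edgeR and 0 by DESeq2 and limma-voom), with a median of -0.37. The share lower was 23.1%, against 26.2% of all tested genes and 46.4% of those in the lowest GC quintile. The median transcript GC content of cluster 5 was 37.4%. Its median fold change was -0.01 with the GC and length offsets (1 lower call) and 0.25 with the covariate. With 1 library left out the lower count of cluster 5 was 1 without control library 6 or miR-122-5p library 2, 2 without control library 1, 3 or 5 or miR-122-5p library 1, 3 or 5, and otherwise 3 or 4. In cluster 12 (43525497 to 45076588) 4 of 15 members fell and 1 rose, with a median of -0.14 (2 rose without control library 3 or miR-122-5p library 2). The share lower, 26.7%, was near the 26.2% of all tested genes, and the share higher was 6.67% against 24.3%. With the offsets 1 member of cluster 12 was called lower and 2 higher, with a median of 0.005. Clusters 3, 8 and 9 held 2, 1 and 2 members that fell, and cluster 2 held 2 that rose.

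**Figure D1:**
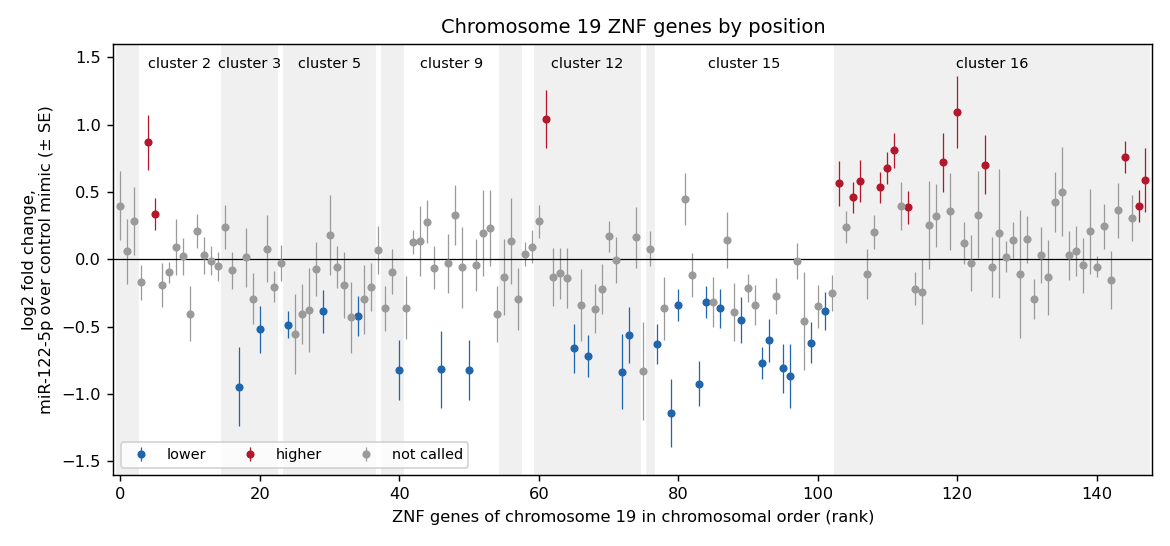
The 148 members in chromosomal order (horizontal axis, rank) against their log2 fold change, miR-122-5p over control mimic, with SE bars; blue marks members called lower, red higher and grey not called, and the shading alternates between clusters. The 13 called members of cluster 15 lie below 0 and the 13 called members of cluster 16 above 0.

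Library by library, the median deviation of the cluster 15 members from their 12-library mean was -0.24 to -0.07 log2 CPM with miR-122-5p and 0.04 to 0.38 with the control mimic. For cluster 16 it was 0.07 to 0.23 with miR-122-5p and -0.24 to 0.06 with the control mimic. Neither cluster had a library in the range of the other group. Summed over the cluster, the level was 103.0 to 110.7 CPM against 125.5 to 151.0 for cluster 15, and 319.3 to 369.9 against 235.9 to 300.3 for cluster 16, again without overlap. The sum over all 148 members was 804.1 to 850.5 CPM with miR-122-5p and 746.6 to 809.6 with the control mimic, ranges that overlapped.

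The clusters also differed in base composition. The median transcript GC content was 41.0% in cluster 15 and 47.7% in cluster 16, beside 42.9% over all members (34.1 to 71.1%) and 48.9% over all tested genes. Of the 96 members under 45% GC, 22 fell and 2 rose (median -0.20). Of the 31 members from 45% to under 55%, 3 fell and 3 rose (median 0.12). Of the 21 members at 55% or more, 11 rose and 0 fell (median 0.36; edgeR gave 0 lower at an unadjusted p under 0.05, and DESeq2 and limma-voom called 0).

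Genes at large followed the same order. Divided into quintiles of transcript GC content, all tested genes had medians of -0.30, -0.16, -0.02, 0.17 and 0.39 from low to high GC, and the members of the same quintiles had medians of -0.23, -0.11, 0.12, 0.39 and 0.36. In the quintile of lowest GC 11 of 52 members fell, where 46.4% of all genes were called lower and 6.5% higher. In that of highest GC 10 of 19 members rose, where 50.8% of all genes were called higher and 7.73% lower. Across the 148 members the fold change and the GC content had a Spearman correlation of 0.44, a description across genes that share the same 12 libraries.

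**Figure D2:**
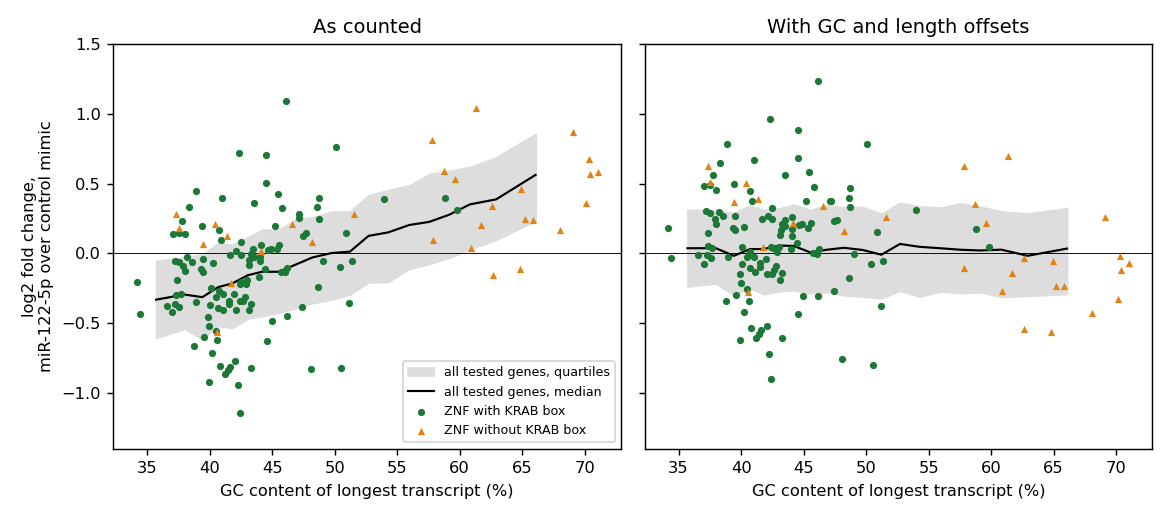
Transcript GC content (horizontal axis, percent) against log2 fold change, as counted on the left and with GC and length offsets on the right; circles are members with a KRAB box, triangles members without one, the line is the median of all tested genes in 20 bins and the band their quartiles. As counted, the members follow the upward line from low to high GC, and with offsets the line is near 0 and the members' correlation is -0.11.

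With the GC and length offsets 14 members were called lower and 16 higher (23.5% and 23.3% of all tested genes), and the median of the members was 0.05. Of those called as counted, 11 of 25 kept a lower call and 7 of 16 a higher one. The 3 members newly called lower were ZNF574, ZNF579 and ZNF784, and the 9 newly called higher were ZNF121, ZNF146, ZNF226, ZNF260, ZNF470, ZNF562, ZNF587B, ZNF615 and ZNF790. With the GC slope as a covariate, edgeR called 0 members lower and 5 higher (12.2% and 7.22% of all tested genes). At an unadjusted p under 0.05 this fit gave 7 members lower, whereas DESeq2 and limma-voom without the covariate called 26 and 24.

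The contrast between the clusters was smaller with the offsets. In cluster 15, 6 of the 13 members kept a lower call with the offsets and ZNF615 was newly called higher, with a median of -0.11. The covariate left 0 lower (4 at an unadjusted p under 0.05 in edgeR), with a median of -0.22. DESeq2 and limma-voom called 13 and 12 lower without the covariate. In cluster 16 the offsets gave 8 higher calls, of which 6 were among the 13 and ZNF470 and ZNF587B were new, and 2 new lower calls, with a median of 0.21. The covariate gave 3 higher, with a median of 0.13. Among members under 45% GC alone, 11 of 24 fell in cluster 15 (45.8%, median -0.35, with offsets -0.10). Of all tested genes in the lowest GC quintile and the next, 46.4% and 34.8% were called lower and 6.5% and 11.9% higher. In cluster 16, 2 of 12 members under 45% GC rose (16.7%, median 0.03, with offsets 0.21). For these 12 the library medians of the groups overlapped, at -0.05 to 0.16 with miR-122-5p and -0.18 to 0.09 with the control mimic.

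**Figure D3:**
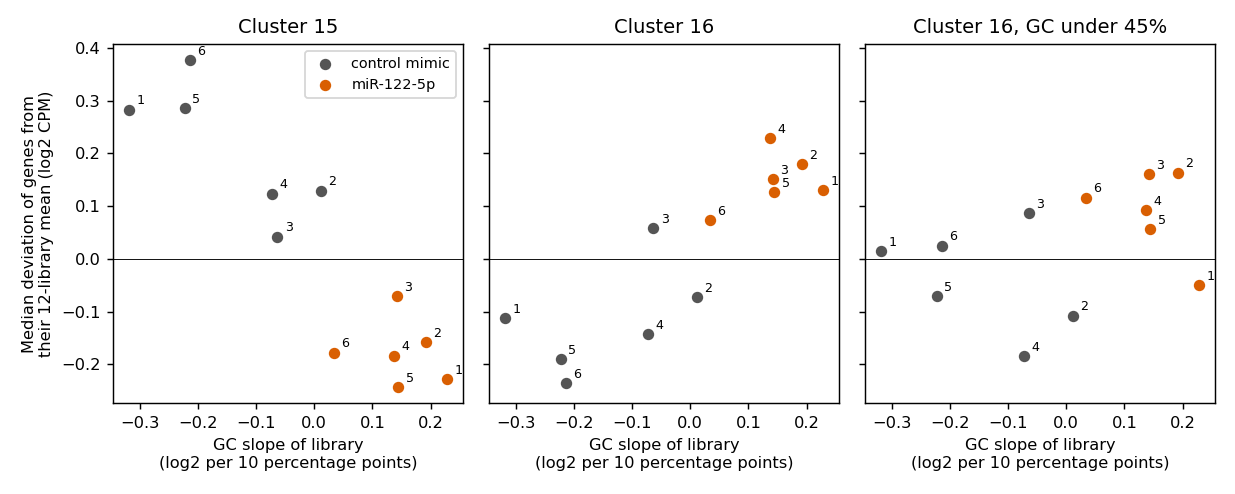
Each point is 1 library, numbered by replicate; the horizontal axis is the library's GC slope (log2 CPM per 10 percentage points) and the vertical axis the median deviation of the genes of cluster 15, of cluster 16, or of the cluster 16 genes under 45% GC from their 12-library mean (log2 CPM). The groups stand apart on both axes for clusters 15 and 16 and overlap on the vertical axis in the last panel.

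Of the 25 members that fell, 13 lay in cluster 15 and 24 had a KRAB box. ZNF600 (chr19:52749942-52786807, minus strand; 18 fingers) was at 3.52, 3.93 and 4.52 CPM (lowest, median and highest) with miR-122-5p and at 5.85, 6.81 and 7.72 with the control mimic. Every library given miR-122-5p was below every control library. The mean was 3.99 ± 0.355 against 6.80 ± 0.649 CPM (SD, n = 6 in each group), and the log2 fold change was -0.77 ± 0.12 (edgeR adjusted p = 1.64e-05; -0.52 and 0.000499 with the offsets, -0.52 and 0.0864 with the covariate).

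ZNF432 (chr19:52031379-52095738, minus strand; 16 fingers) was at 2.20, 2.79 and 3.88 CPM with miR-122-5p and 4.45, 5.23 and 7.44 with the control mimic. The groups did not overlap, and control libraries 5 and 6 were the highest. It fell by 0.92 ± 0.17 on the log2 scale (edgeR adjusted p = 9.00e-05; -0.62 and 0.00275 with the offsets, -0.57 and 0.224 with the covariate).

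ZNF613 (chr19:51927147-51948759, plus strand; 12 fingers) had the lowest fold change of the members. It was at 0.845, 1.22 and 2.08 CPM with miR-122-5p and 1.64, 2.76 and 4.31 with the control mimic. The groups overlapped, since control library 5 at 1.64 lay below the library given miR-122-5p at 2.08. The change was -1.14 ± 0.25 (edgeR adjusted p = 0.000749; -0.90 and 0.00507 with the offsets, -0.99 and 0.156 with the covariate).

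ZNF175 (OTK18), described in macrophages as a repressor of HIV-1 transcription, lies at the proximal end of the cluster (chr19:51571298-51592508, plus strand). It was at 4.75, 5.08 and 5.27 CPM with miR-122-5p and 5.63, 7.33 and 12 with the control mimic. The groups did not overlap, the 6 libraries given miR-122-5p lay close together, and control library 6 stood above its group. The change was -0.63 ± 0.15 (edgeR adjusted p = 0.00145; -0.43 and 0.0175 with the offsets, -0.43 and 0.339 with the covariate).

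The cluster 15 members ZNF888, ZNF845, ZNF28 and ZNF816 fell by 0.81, 0.62, 0.60 and 0.87 on the log2 scale (SE 0.18, 0.15, 0.16 and 0.24). All 4 have a KRAB box and 15 to 26 fingers. The offsets ended the calls of ZNF845 and ZNF28 (adjusted p = 0.0622 and 0.111) and the covariate all 4 (0.148 to 0.673). ZNF350 (ZBRK1), a partner of BRCA1 in repression, is a member of the same cluster with a smaller change (-0.34 ± 0.12, edgeR adjusted p = 0.0211; -0.12 and 0.416 with the offsets). Leaving out miR-122-5p library 2 or 4 ended its call as well.

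Outside cluster 15, ZNF101 of cluster 5 (chr19:19668796-19683509, plus strand), one of the 9 members with an 8mer, was at 7.57, 7.77 and 9.02 CPM with miR-122-5p and 9.57, 11.5 and 12.4 with the control mimic. The groups did not overlap. It fell by 0.48 ± 0.10 on the log2 scale (edgeR adjusted p = 0.000290; -0.31 and 0.0105 with the offsets, -0.48 and 0.0654 with the covariate).

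ZNF224 of cluster 12, a KRAB repressor first described on the aldolase A promoter, was at 2.88, 3.31 and 3.72 CPM with miR-122-5p and 3.87, 5.35 and 6.91 with the control mimic, without overlap. It changed by -0.72 ± 0.16 (edgeR adjusted p = 0.000628; -0.42 and 0.0185 with the offsets, -0.24 and 0.596 with the covariate). Another annotated gene, AC021092.1, overlaps 40.5% of its exon length, so its value is uncertain.

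**Figure D4:**
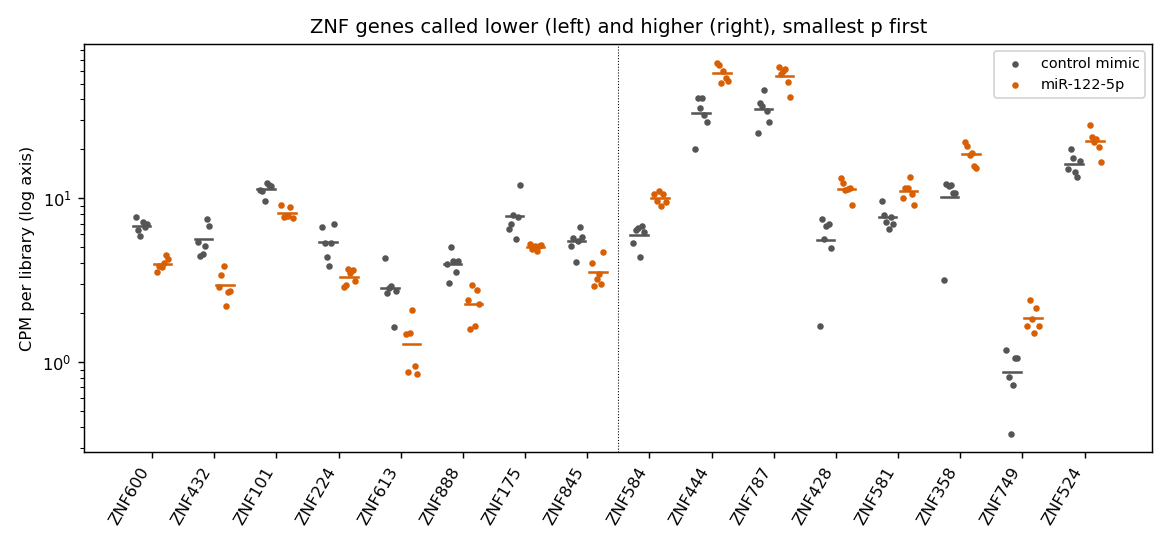
CPM per library (log axis) of the 8 members called lower and the 8 called higher with the smallest p, smallest first on each side; grey points are control libraries, orange points libraries given miR-122-5p, and horizontal lines are group means. ZNF600, at 3.52 to 4.52 against 5.85 to 7.72 CPM, and ZNF584, at 8.90 to 11.1 against 4.36 to 6.71 CPM, are separated between the groups.

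Of the 16 members that rose, 10 had no KRAB box and 11 had a GC content of 55% or more. ZNF584 (chr19:58401504-58418327, plus strand; cluster 16, a KRAB box and 8 fingers, 50.1% GC) was at 8.90, 10.1 and 11.1 CPM with miR-122-5p and 4.36, 6.29 and 6.71 with the control mimic. The groups did not overlap. It rose by 0.76 ± 0.12 on the log2 scale (edgeR adjusted p = 1.47e-05), and it stayed called in each alternative run (change 0.69 to 0.80, adjusted p at most 0.0290).

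ZNF749 (chr19:57435329-57445485, plus strand; cluster 16, a KRAB box and 13 fingers) was scarcer, at 1.51, 1.75 and 2.39 CPM with miR-122-5p and 0.365, 0.936 and 1.19 with the control mimic. Again no library of one group reached the other. Its rise was 1.09 ± 0.26 (edgeR adjusted p = 0.00157; 1.23 with the offsets and 1.73 with the covariate), and it too stayed called in each alternative, with an adjusted p of at most 0.0223. Its mean was 46.6 counts.

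ZNF444 (EZF-2), described as an activator of the scavenger receptor gene SCARF1, was the member of highest mean count (1548). It lies in cluster 16 (chr19:56132599-56160893, plus strand; 57.8% GC, 4 fingers). It was at 50.7, 56.9 and 67.2 CPM with miR-122-5p and 20.1, 33.8 and 41.0 with the control mimic, without overlap. The change was 0.81 ± 0.13 (edgeR adjusted p = 2.31e-05; 0.63 and 3.48e-05 with the offsets, 0.07 and 0.792 with the covariate).

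ZNF787 (chr19:56087366-56121280, minus strand), the next in abundance, had 70.3% GC and 7 fingers. It was at 41.5, 58.5 and 63.3 CPM with miR-122-5p and 25.2, 35.4 and 45.7 with the control mimic, and the groups overlapped. As counted it changed by 0.68 ± 0.12 (edgeR adjusted p = 7.74e-05), and with the offsets by -0.02 (adjusted p = 0.873).

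The GC-rich members ZNF524, ZNF865 and ZNF628 changed in the same direction, by 0.46 ± 0.11, 0.58 ± 0.15 and 0.57 ± 0.17 as counted (64.9, 71.1 and 70.4% GC). With the offsets they stood at -0.06, -0.07 and -0.12 with no call (edgeR adjusted p = 0.651, 0.528 and 0.574). ZNF358 (69.1% GC) changed by 0.87 ± 0.20, or 0.26 with the offsets (edgeR adjusted p = 0.169) and -0.11 with the covariate (adjusted p = 0.853). ZNF428 (61.3% GC) changed by 1.04 ± 0.22, or 0.70 with the offsets and 0.03 with the covariate.

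Control library 1, which had the lowest GC slope of all 12 libraries, was the lowest library for ZNF444, ZNF787, ZNF428 and ZNF358. Its level was 1.65 CPM for ZNF428 and 3.15 CPM for ZNF358, where the other control libraries were at 4.94 to 7.41 and 10.8 to 12.1. Left out, it ended none of these 4 calls. Annotated neighbours overlap 27.6% of the exon length of ZNF428 (SRRM5), 34.4% of that of ZNF358 and 23.4% of that of ZNF581 (ZNF580 and CCDC106), so these 3 values are uncertain. ZNF581 was called as counted (0.53 ± 0.12) and not with the offsets (0.22, edgeR adjusted p = 0.183).

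The letters of the finger arrays show how far the members differ in base composition while coding for nearly the same stretch of protein. C2H2 fingers in tandem are joined by a conserved linker of 7 amino acids. A linker of each of 5 members is shown 5′ to 3′, with the last base of each codon in capitals, since these positions can largely differ without changing the amino acid.

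ZNF600: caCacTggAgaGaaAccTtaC
ZNF432: caTacAggAgaAaaAccTtaT
ZNF749: caCacTggAgaAaaGccTtaT
ZNF787: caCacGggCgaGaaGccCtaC
ZNF865: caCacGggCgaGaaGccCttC

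Of the 7 last positions, G or C stood at 3 in ZNF600, 0 in ZNF432 and 2 in ZNF749, and at all 7 in ZNF787 and ZNF865. The linker was searched by its conserved pattern in the coding sequence on the sense strand, in frame, and 119 of the 148 members held at least 1, with 764 in all. Over all matched linkers of the gene, G or C made up 35.7% of last positions in ZNF600 (6 linkers) and 31.2% in ZNF432 (11 linkers). The share was 21.4% in ZNF749 (2 linkers), which rose. It was 100% in ZNF787 (2 linkers) and in ZNF865, where the only matched linker (1) is the one printed. Across the 119 genes, linker GC content and transcript GC content had a Pearson correlation of 0.75 and a Spearman correlation of 0.34. Linker GC content and the fold change as counted had 0.27 and 0.11.

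The members were next grouped by the KRAB box, searched by pattern. Boxes that the pattern missed were not counted, so a member without one is a member without a match. The box was found in 118 members. Of these, 24 fell and 6 rose (20.3% and 5.08%, against 26.2% and 24.3% of all tested genes; median -0.12). Of the 30 members without one, 1 fell and 10 rose (3.33% and 33.3%; median 0.22), and the difference between the kinds was not tested. For the 30 the median GC content was 60.2%, and for the KRAB members 42.4%. The lower count of the 30 was 0 without control library 1 or 6 or miR-122-5p library 1, 2 or 5, and 2 without control library 2. Within members under 45% GC, 21 of 88 with a KRAB box fell and 2 rose (median -0.21), and of the 8 without one 1 fell (median 0.10). At 45% GC or more, 3 of 30 with a KRAB box fell and 4 rose (10% and 13.3%, median 0.13). Of the 22 without one, 10 rose (45.5%, median 0.31). The median GC contents of these 30 and 22 still differed, at 47.9% and 62.6%. Of all tested genes, 19.1% were called higher in the GC quintile from 46.2% to 52.0%, and 50.8% in the quintile from 58.4% up. With the offsets the medians were 0.05 with and 0.01 without a KRAB box.

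In cluster 16 alone, 6 of 31 KRAB members and 7 of 14 members without a KRAB box rose (19.4% and 50%, against 24.3% of all tested genes). Their median GC contents were 45.8% and 63.7%. With the offsets 7 and 1 rose, where 23.3% of all tested genes did, and the medians were 0.23 and -0.06. The KRAB members of cluster 16 thus kept a positive median after the offsets and those without a KRAB box did not. Over all members at 45% GC or more, the offset medians were 0.18 with and -0.06 without a KRAB box. Cluster 16 supplied 33 of those members, so this comparison largely repeats the cluster. Whether the pattern was particular to the cluster was not tested.

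The number of fingers ran from 1 to 31, with a median of 12. Of the 35 members with 1 to 8 fingers, 5 fell and 9 rose (14.3% and 25.7%, against 26.2% and 24.3% of all tested genes). Of the 70 with 9 to 14 fingers, 8 fell and 5 rose (11.4% and 7.14%). Of the 43 with 15 or more, 12 fell and 2 rose (median -0.20, with offsets 0.01). The share lower in the last class, 27.9%, was near the 26.2% of all tested genes, and the share higher was 4.65% against 24.3%. The Spearman correlation of the fold change with the number of fingers was -0.22 across the 148 genes, and -0.02 with the offsets. Finger number and GC content were themselves correlated (-0.35).

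Matches to the miR-122-5p seed stood in a larger share of the members' 3′ UTRs than of those of all tested genes. Of the 147 members with an annotated 3′ UTR, 60 (40.8%) held a match of 7 or 8 bases, against 25.7% of all tested genes with a 3′ UTR. For the 8mer the shares were 6.12% and 3.49%, and for the 7mer-A1 class, with 42 members, 28.6% and 15.96%. The median length of the 3′ UTR was 2081 bases in the members and 1592 in all tested genes, so the windows searched were longer in the members.

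In the coding sequence, the order was the other way round, with a match of 7 or 8 bases in 10.8% of members and 16.2% of all tested genes.

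The classes did not order the members by fold change. The median was -0.17 in the 9 members with an 8mer (2 fell, 1 rose), -0.03 in the 9 with a 7mer-m8 (1 fell, 2 rose), 0.03 in the 42 with a 7mer-A1 (5 fell, 2 rose), -0.16 in the 18 with a 6mer (4 fell, 1 rose) and -0.06 in the 69 with none (13 fell, 9 rose). With the offsets the medians were 0.04 for the 8mer class and -0.01 for members with none. Over all tested genes the medians as counted were -0.08 with an 8mer and 0.00 with none, and 31.6% were called lower and 21.8% higher with an 8mer, 31.9% and 24.9% with a 7mer-m8, 30.6% and 21.5% with a 7mer-A1, 24.6% and 31.5% with a 6mer, and 28.7% and 26.9% with none.

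Of the members with an 8mer, ZNF101 fell as described. ZNF430 was at 5.50, 6.51 and 7.36 CPM with miR-122-5p and 5.64, 8.84 and 12.3 with the control mimic, overlapping ranges. Its call (-0.38 ± 0.16, edgeR adjusted p = 0.0485) ended in 17 alternatives with the same sign, and the value was positive with the covariate (0.31). ZNF791, which holds a pair of 8mers, changed by -0.20 ± 0.11, ZNF264 by -0.22 ± 0.12, ZNF557 by -0.17 ± 0.13 and ZNF614 by -0.12 ± 0.16, none of them called (edgeR adjusted p = 0.145 to 0.585). ZNF548, the remaining called member with an 8mer, rose by 0.72.

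Members known to restrain transposable elements were examined by name. ZNF91, which represses SVA and L1 retrotransposons and had the most fingers of all members (31), was at 3.23, 3.91 and 4.62 CPM with miR-122-5p and 3.95, 4.87 and 7.24 with the control mimic, overlapping ranges. The change was -0.42 ± 0.15 (edgeR adjusted p = 0.0229), and -0.07 with the offsets (adjusted p = 0.697). Leaving out control library 6 or miR-122-5p library 2 ended the call as well.

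ZNF93, a repressor of older L1 elements, changed by -0.07 ± 0.20 (edgeR adjusted p = 0.796). ZNF274, which brings SETDB1 to the 3′ ends of the ZNF genes themselves, was among the 5 members of highest CPM, at 25.2, 27.8 and 29.7 CPM with miR-122-5p and 26.6, 29 and 30.4 with the control mimic. The ranges overlapped and the change was -0.05 ± 0.07 (edgeR adjusted p = 0.582). ZNF43, ZNF85 and ZNF331 were below the count minimum and are not members. ZNF331 was called higher as counted (1.41 ± 0.50, edgeR adjusted p = 0.0231) on a mean of 19.2 counts. ZNF304, linked to TRIM28-dependent silencing of tumour suppressor loci, changed by 0.32 ± 0.23 (edgeR adjusted p = 0.261).

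Another pair of members was examined by name for described roles in inflammatory signalling. ZNF675 (TIZ), an inhibitor of TRAF6 signalling, was at 1.29, 1.47 and 2.06 CPM with miR-122-5p and 0.963, 2.20 and 2.73 with the control mimic, overlapping ranges (-0.30 ± 0.26, edgeR adjusted p = 0.357). ZNF382, a repressor of NF-kB and AP-1 genes, was at 0.683, 0.827 and 1.01 against 0.779, 1.26 and 2.22 CPM. Its call as counted (-0.82 ± 0.29, edgeR adjusted p = 0.0218) ended with the offsets (-0.55, adjusted p = 0.117), with the covariate (-0.09), and without control library 5 or 6, in a gene with a mean of 38.8 counts.

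Among the other abundant members, ZNF146 (OZF), a protein made almost wholly of fingers, changed by 0.13 ± 0.09 as counted (edgeR adjusted p = 0.238) and was called higher with the offsets (0.39, adjusted p = 8.31e-05) and the covariate (0.43, adjusted p = 0.0277). ZNF317 changed by -0.10 ± 0.08 (adjusted p = 0.318). ZNF473, the factor of the U7 snRNP in histone mRNA 3′ processing, changed by 0.08 ± 0.13, and ZNF580 by 0.21 ± 0.13. Per kilobase of the longest transcript, the levels of the members ran from 0.106 to 23.5 CPM with a median of 0.709. The highest were ZNF787 at 23.5, ZNF524 at 15.3, ZNF146 at 9.82, ZNF580 at 9.61 and ZNF444 at 8.20, none with a KRAB box.

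Near-identical copies limit some values. Of the members, 26 shared at least 10% of the 50-base words of their coding sequence with another gene, 12 of them in cluster 15 and 10 in cluster 16. The share was 66.7% for ZNF587 and ZNF417, neither of them called. Among those called it was 49.8% for ZNF585B, 31.7% for ZNF324, 22.9% for ZNF600, 18.0% for ZNF888, 15.1% for ZNF28, and 11.7% for ZNF816, among others.

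Corepressor genes of KRAB proteins and other heterochromatin genes were examined together as a list of 33 genes (the corepressor list). Of these, 8 fell, 13 rose and 12 did not pass the test (median 0.10, and 0.01 over all tested genes). The share lower, 24.2%, was near the 26.2% of all tested genes, and the share higher was 39.4% against 24.3%. The genes of the list were more abundant than most, with a median of 757 counts against 354.8 over all tested genes. In either direction 63.6% of the list was called, near the 65.7% of all tested genes with 300 or more counts. TRIM28 itself was at 162.5, 171.3 and 186.7 CPM with miR-122-5p and 110.8, 126.6 and 135.1 with the control mimic. The groups did not overlap and the change was 0.46 ± 0.07 (edgeR adjusted p = 6.17e-06), but 0.04 with the offsets (adjusted p = 0.597). SETDB1 was not called (-0.06 ± 0.09, edgeR adjusted p = 0.618).

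KIAA1551 (RESF1), a partner of SETDB1 in retroelement silencing, fell most in the list. It was at 32.1, 39.3 and 43.1 CPM with miR-122-5p and 86.7, 101.8 and 109.6 with the control mimic, far apart. The change was -1.39 ± 0.09 (edgeR adjusted p = 2.39e-11), and it was called in each alternative (change -1.43 to -1.05). TRIM33 (-0.65 ± 0.08) and UHRF1 (1.95 ± 0.24), which guides maintenance DNA methylation, were also called in each alternative, with an adjusted p of at most 0.00326 and 0.00728. The calls of CHD3 (0.82) and DNMT3A (0.63) ended with the covariate (adjusted p = 0.0780 and 0.0555), and that of TRIM24 (-0.38) with the offsets as well. With the offsets 3 genes of the list were called lower and 15 higher, where 23.5% and 23.3% of all tested genes were.

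For comparison, of the 189 ZNF genes of other chromosomes above the same count minimum, 55 fell and 32 rose (29.1% and 16.9%, median -0.07). Of the 727 other protein-coding genes of chromosome 19, 75 fell and 415 rose (10.3% and 57.1%, median 0.35). The shares over all tested genes were 26.2% lower and 24.3% higher. With the offsets the medians of the lists were -0.02 and 0.07. The ZNF members had 42.9% median GC, the ZNF genes of other chromosomes 46.5% and the other genes of chromosome 19 60.1%. Whether the members differ from either list was not tested.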

How the data were processed

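The authors deposited unnormalized read counts of each gene in 1 table. The submitters' processing notes list the hg38 build, HISAT2 2.0.5 and featureCounts 1.5.0-p3, and their settings, strand mode included, were not stated, so overlapping and antisense genes are uncertain. Control columns were assigned to the control mimic group by name and number. In R 4.3.3 counts were filtered with filterByExpr, scaled by TMM and tested with edgeR 4.0.16 (quasi-likelihood, Benjamini-Hochberg over all tested genes, threshold 0.05). For log2 CPM 2 was the prior count. The script was checked on simulated data. Alternatives were DESeq2 1.42.0, limma-voom (limma 3.58.1), other size factors and filters, each library left out, the replicate number as a block, offsets from natural splines (4 degrees of freedom) on transcript GC content and length, and a covariate holding the GC slope of the library. Leaving out control libraries 1 and 6 together was chosen after seeing the data. No shared origin of same-numbered libraries is given, so the main fit has no block.

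Positions, transcripts, 3′ UTRs and coding sequences came from GENCODE 29 (GRCh38). C2H2 fingers and KRAB boxes were found by pattern in the translated coding sequences, because no protein table was used here. The KRAB pattern also matched 1.79% of proteins without fingers. How often it misses a KRAB box was not measured. Where GC content was missing for a gene, the median was used; no ZNF gene was among these. Named genes were the 10 called lower and 10 called higher members with the smallest p, the 5 of highest CPM, up to 6 with an 8mer by count, members with a described role, TRIM28, SETDB1 and up to 3 called corepressor genes in each direction, and the members nearest to the count minimum. Others were named after their values were seen. The members and all lists were chosen with earlier results of these data known.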

Additional observations from a re-analysis of the deposited data

Results flagged for a closer look

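Among the named genes, 106 groups of 6 libraries were examined for a library whose gap to its nearest neighbour was wide for the range of the group (Dixon's test at the 95% level). Chance flags about 1 in 20 groups, and 4 were flagged, all in the control mimic group. Control library 6 was highest for ZNF175, the HIV-1 repressor, at 12 CPM with the next library at 7.91. It was also highest for ZNF473, the histone mRNA processing factor, at 10.7 CPM with the next at 7.92, and lowest for ZNF614 at 2.84 CPM with the next at 3.9. Control library 1 was lowest for ZNF358 at 3.15 CPM with the next at 10.8. The call of ZNF175 held without control library 6 and that of ZNF358 without control library 1.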

How the results depend on the processing

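The number of members called lower, 25, became 14 with GC and length offsets (11 of them among the 25), 13 with these and the replicate block together (10 among the 25), 0 with the GC slope covariate, 14 at an adjusted p under 0.01 and 16 when members needed a mean of 100 counts. The number called higher, 16, became 5 with the covariate, 3 of them among the 16. Under the same settings (offsets, offsets with block, covariate) the median of the members, -0.0551, became 0.0458, 0.1065 and 0.0708. Genes of the corepressor list called lower went from 8 to 3, 3 and 2, and those called higher from 13 to 4 with the covariate. For ZNF genes of other chromosomes the covariate left 16 lower and 13 higher. Leaving out each library in turn gave 19 to 26 members lower, 14 to 17 higher and medians of -0.0699 to -0.02. The sign of the change turned for ZNF787 (-0.0171 with the offsets, -0.0144 with the block as well), ZNF524 (-0.0565, -0.0514, and -0.0041 with the covariate), ZNF865 (-0.0718, -0.0621, and -0.2516 with the covariate) and ZNF628 (-0.1189, -0.1097). With the covariate it also turned for ZNF358 (-0.1088), ZNF430 (0.3105) and ZNF331 (-0.0095). The cause of these moves was not tested. The libraries' numbers do not pair them: same-numbered libraries had correlations of -0.105 to 0.066, and 1 of 6 correlated best with its own number. The replicate block gave 21 members lower and 16 higher, 21 and 15 of them shared with the fit without it. Mean counts under 100 in 72 members limit what could be called.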
